A study of Caenorhabditis elegans with 4 samples.

Results

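The sites described here are the peaks of the GFP-tagged transcription factor zip-8 (locus F23F12.9) that lie on the X chromosome of Caenorhabditis elegans embryos. They are the 336 peaks with X as their chromosome among the 2237 of the combined peak list, and the other 1901 lie on the 5 autosomes. The position of each peak chose the members, and no measured level did. The series holds 2 ChIP samples, in which tagged protein was precipitated with anti-GFP antibodies, and 2 input samples of total chromatin, which have no values in what follows. All 4 samples are embryos of strain OP327, grown at 20 °C in a mixed population of males and hermaphrodites and fixed with 2% formaldehyde. The labelled genotype is unc327(ed3) with the transgene wgIs102, written as F23F12. with a TY1 EGFP FLAG tag and unc119, whereas the strain description names unc-119(ed3) as the strain that was transformed by bombardment. The factor was thus read from a transgene in whole embryos, in all samples alike. The labels do not say which cells express it, and no untagged strain was analysed here. Nothing in the labels says whether both ChIP samples came from separate cultures.

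zip-8 encodes a bZIP (basic leucine zipper) protein, one of the transcription factors that grip DNA as dimers through a basic region next to a zipper of leucines. The X chromosome sets the sex of the worm: hermaphrodites carry a pair and males a single copy. In hermaphrodite embryos the dosage compensation complex binds both X chromosomes and lowers their transcription, and X carries few genes used in the germ line. The outer parts, or arms, of the autosomes recombine more often and hold more repeats and repressive chromatin than their centres, a division that is weaker on X. In a mixed population X is present in fewer copies per embryo than an autosome. The part of copy number in the values below was not tested.

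ChIP-seq finds the places where a protein sits by sequencing the DNA that comes down with it, and a peak is an interval where that DNA piled up. Each peak of the deposited lists has a position, a width and a number in its name. The number was used as the order of a list, lowest first, although no file header calls it a rank. In each replicate list it ran with the authors' peak score (Spearman rho −0.99 across peaks in both), but peaks 1 to 4605 of replicate 1 and 1 to 2598 of replicate 2 tied at the highest score. In the combined list the authors gave every peak the same score. The order among the first 2237 peaks of each list thus rests on the number alone, and “first” means lowest-numbered in what follows. Replicate 1 had 20879 nuclear peaks, of which 3665 lay on X, and replicate 2 had 13776, of which 2376 lay on X. The lists hold no read counts, so depth is unknown. Intervals in what follows are 95% intervals and cover counting error only, as if peaks were placed independently of one another. No test over peaks was made, since the peaks of 1 list are not replicates, and differences between X and autosomes are descriptions with their intervals. Positions are on WormBase build WS220. No WS220 annotation or sequence was used here, so sites are named by position and their genes and bases are not given.

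X was sparsely marked in the combined list. It held 19 peaks per Mb (interval 17 to 21.1) over its span of 17.7 Mb, against 23 per Mb (22 to 24.1) on the autosomes pooled, a ratio of 0.82 (0.73 to 0.93). Combined regions covered 133 kb of X, 0.752% of its span, against 0.901% of the autosomal span. X had the lowest density of the 6 chromosomes, but its nearest neighbours in that order had overlapping intervals. Chromosome IV had 20.0 peaks per Mb (17.9 to 22.2), chromosome II 20.4 (18.2 to 22.8) and chromosome V 20.7 (18.8 to 22.7). Chromosomes I and III stood well above X, with 29.2 (26.5 to 32) and 26.8 (24.1 to 29.7) peaks per Mb. The pooled autosomal value holds these high densities.

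X lay further below the autosomes in replicate 1 than in replicate 2, with ratios whose intervals overlap. Each replicate list was shortened to its first 2237 nuclear peaks to match the combined list. In replicate 1 these gave 18.7 peaks per Mb on X (interval 16.8 to 20.9) and 23.1 on the autosomes (22.1 to 24.1), a ratio of 0.81 (0.72 to 0.91). In replicate 2 they gave 20.9 on X (18.9 to 23.2) and 22.6 on the autosomes (21.6 to 23.7), a ratio of 0.93 (0.83 to 1.04), and the interval includes no difference. X was the lowest of the 6 chromosomes in replicate 1, whereas in replicate 2 chromosomes V, IV and II were lower, with 18.5, 19.2 and 19.8 peaks per Mb. Over the whole lists X was close to the autosomes in both samples. All peaks of replicate 1 came to 207 per Mb on X and 209 on the autosomes (ratio 0.99, interval 0.96 to 1.03). Those of replicate 2 came to 134 per Mb on X and 138 on the autosomes (ratio 0.97, interval 0.93 to 1.01).

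**Figure D1:**
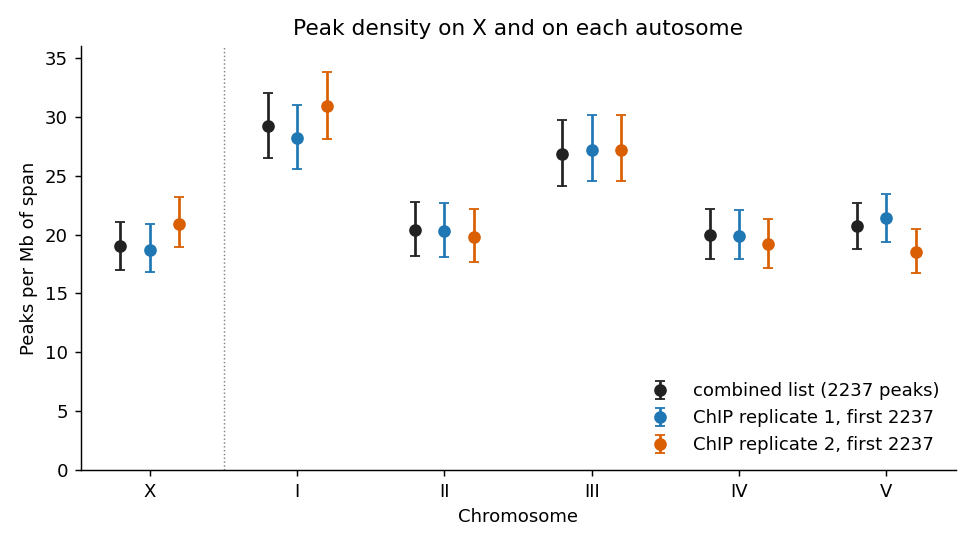
Peaks per Mb of span on X and on each autosome for the combined list and for the first 2237 nuclear peaks of each ChIP replicate, with 95% exact Poisson intervals as bars. X is the lowest chromosome in the combined list (19 per Mb) and in replicate 1 (18.7), but not in replicate 2 (20.9).

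The share of X was lowest at the head of the lists. X makes up 17.7% of the nuclear span, and it held 6 of the first 100 combined peaks (6%, interval 2.78 to 12.5%). Of combined peaks 101 to 500 it held 57 (14.2%, 11.2 to 18%), of peaks 501 to 1000 it held 74 (14.8%, 12 to 18.2%), and of the rest 199 (16.1%, 14.1 to 18.2%). Seen from X, 8.04% of its peaks were in the first 10% of the list, the main cut, against 10.4% on the autosomes. The interval of the difference includes 0 (−5.18 to 1.31). Single autosomes ran from 7.85 to 13.4% there, so that X was not the lowest. The first 5%, an alternative cut, held 7 of 336 X peaks (2.08%, 1.01 to 4.24%) and 105 of 1901 autosomal peaks (5.52%, 4.58 to 6.64%). That difference was −3.44 percentage points (−4.99 to −1.09). On single autosomes this share ran from 3.46 to 7.06%, and the lowest lies within the interval of X. The median number was 1246 on X and 1100 on the autosomes, where single autosomes ran from 997 to 1166.

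Both ChIP samples had few X peaks among their first 100 nuclear peaks, 5 in replicate 1 (5%, interval 2.15 to 11.2%) and 9 in replicate 2 (9%, 4.81 to 16.2%). Beyond the first 100 the shares were nearer to that of the span. In replicate 1, X held 14.2% of peaks 101 to 500 (11.2 to 18%), 14% of peaks 501 to 1000 (11.2 to 17.3%) and 16.2% of peaks 1001 to 2237 (14.2 to 18.3%). Of these, the intervals of peaks 101 to 500 and 1001 to 2237 include the share of X in the span, and that of peaks 501 to 1000 lies below it. Between 2238 and 5000 its share in replicate 1 was 18% (16.6 to 19.5%). In replicate 2, X held 18.8% of peaks 101 to 500 (15.2 to 22.9%) and 17.2% of peaks 501 to 1000 (14.1 to 20.8%), and both intervals include the span share. No X peak had partners numbered up to 100 in both replicates at once (0 of 336, which allows a share of up to 0.893%), whereas 44 of 1901 autosomal peaks did (2.31%, 1.73 to 3.09%). With partners numbered up to 1000 in both, the counts were 68 on X (20.2%, 16.3 to 24.9%) and 459 on the autosomes (24.1%, 22.3 to 26.1%).

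**Figure D2:**
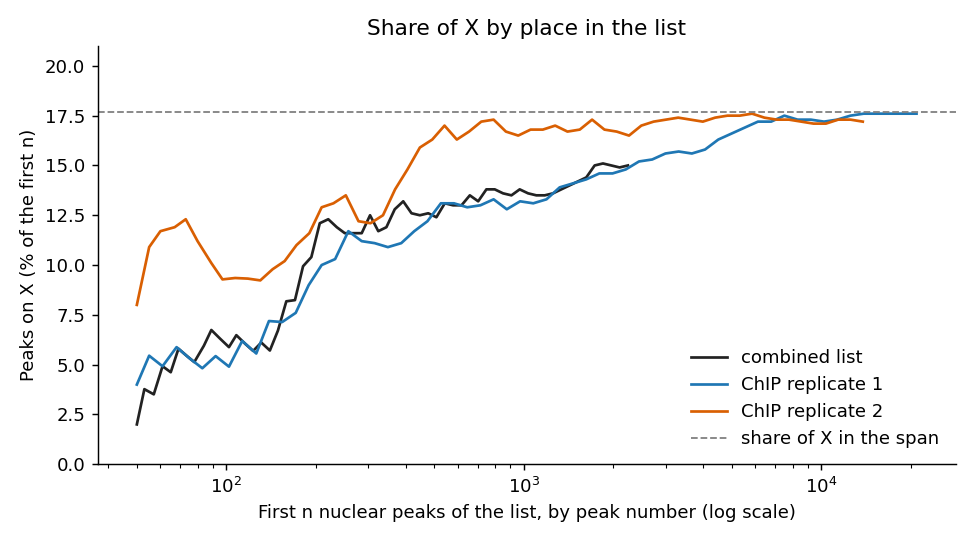
Percent of the first n nuclear peaks that lie on X, against n on a log axis, for the combined list and each ChIP replicate; the dashed line is the 17.7% of the span that X makes up. All 3 curves start low (5 to 9 X peaks among the first 100), and over the first 1000 peaks replicate 2 (17%) is nearer the line than replicate 1 (13.2%).

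The leading X sites can be followed through both samples. The first, combined number 31, lay at X 13227748 to 13228073 and was 326 bp wide, with partners numbered 21 in replicate 1 and 129 in replicate 2. The next, number 52 at X 3957478 to 3957799, had replicate numbers 30 and 437. Number 69 lay only about 13 kb from it, at X 3970804 to 3971132, with replicate numbers 52 and 476. All 3 had the lower number in replicate 1. The lists differ in length, so a number gives a place in its own list and not the size of a signal.

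At some leading sites the lower number was that of replicate 2. Combined number 58, at X 14486321 to 14486711 and 391 bp wide, was number 5 of replicate 2 but number 181 of replicate 1. Number 79 at X 15115745 to 15116044 had replicate numbers 106 and 55, and number 108 at X 10206000 to 10206295, the first site of the middle of X, had 132 and 82. The order of the samples was thus not the same from site to site.

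The remaining sites of the first 10 on X were numbers 86, 126, 141 and 148. Number 86 at X 5366632 to 5366927 was far apart in the samples, number 63 in replicate 1 and number 1827 in replicate 2. Number 126 at X 15988545 to 15988810 had replicate numbers 91 and 448, and number 141 at X 12659790 to 12660072 had 105 and 726. Number 148, at X 88964 to 89255 near the left end, had 194 and 163 and stood 283 kb from the nearest other region. Across the 301 X peaks with partners in both lists, 155 had the lower number in replicate 1 and 145 in replicate 2. The Spearman rho of these numbers was 0.20 on X and 0.33 over 1648 autosomal peaks, as a description across sites that share their libraries.

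Along X, the number of sites varied from one 1 Mb bin to the next. The 17 full bins held from 9 to 35 peaks, with a median of 18, against 10 to 55 with a median of 22 in 80 full autosomal bins. The fullest bin of X was the stretch from 2000001 to 3000000, with 35 peaks, of which 31 overlapped a replicate 2 peak. Its first-2237 counts were 29 in replicate 1 and 36 in replicate 2, the highest count on X in both samples. The next bin in order, from 10000001 to 11000000, held 26 peaks, with 23 in replicate 1 and 33 in replicate 2.

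The emptiest full bin ran from 5000001 to 6000000 and held 9 peaks. The samples gave unlike counts there, with 9 of the first 2237 in replicate 1 and 19 in replicate 2. The bin from 9000001 to 10000000 held 10 peaks, with 10 and 13 in the replicates. In the whole replicate lists it was the lowest full bin of X in both samples, with 158 peaks in replicate 1 and 96 in replicate 2, where the fullest bin held 270 and 200. The variance of the bin counts was 2.27 times their mean on X and 2.28 times on the autosomes pooled. The pooled value also holds the differences in density between autosomes. Single autosomes had 3.16 (I), 2.04 (IV), 1.35 (V), 1.33 (III) and 0.73 (II), so only I was above X. Without replicate 1, the first 2237 peaks of replicate 2 gave 2.41 on X and 3.73 on the autosomes pooled. Single autosomes ran from 2.04 to 4.04 there. Over the 17 bins the first-2237 counts of both replicates had a Pearson r of 0.73, against 0.80 over the 80 autosomal bins. On single autosomes it ran from 0.43 on II to 0.88 on III. These are descriptions over bins of the same genome and the same libraries.

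**Figure D3:**
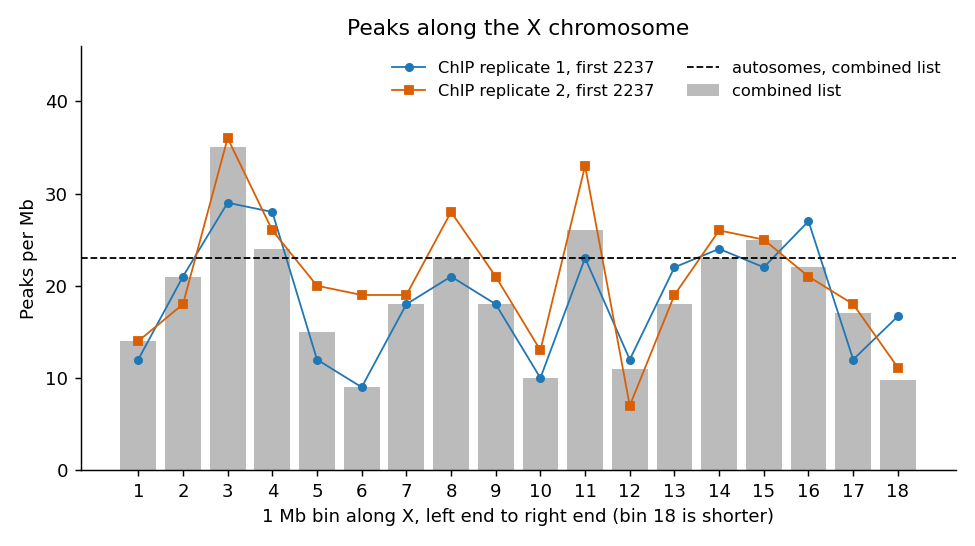
Peaks per Mb in each 1 Mb bin along X, from the left to the right end: grey bars for the combined list, lines for the first 2237 nuclear peaks of each ChIP replicate, and a dashed line at the autosomal density of the combined list (23 per Mb). Bin 3 is the fullest in all 3 lists, and bins 6 and 10 hold 9 and 10 combined peaks.

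Arms and centre of X did not differ beyond their intervals. With the span cut into 3 equal parts, the left part of X held 115 peaks (19.5 per Mb, interval 16.1 to 23.4), the middle 107 (18.1 per Mb, 14.8 to 21.9) and the right part 114 (19.3 per Mb, 15.9 to 23.2), and the intervals overlap. The middle thus held 31.8% of X peaks (27.1 to 37%) and 30.4% of autosomal peaks (28.4 to 32.5%), a difference of 1.44 percentage points (−3.76 to 6.99). On single autosomes this share ran between 24.4% on IV and 33.9% on III. X was lower than the pooled autosomes in each part, with ratios of 0.77 (0.63 to 0.94) on the left, 0.86 (0.70 to 1.06) in the middle and 0.85 (0.69 to 1.03) on the right. The autosomal left parts held 25.3 peaks per Mb, raised by the 35.9 per Mb on the left of chromosome I. In the whole replicate lists the middle of X held 31.6% of peaks in replicate 1 and 31.4% in replicate 2, against 31% on the autosomes in both.

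The same parts of X can be set side by side in other measures. Of the left, middle and right peaks, 90.4%, 87.9% and 90.4% overlapped a replicate 2 peak. The median number was 1177 on the left, 1281 in the middle and 1215 on the right, against 1085, 1066 and 1156 on the autosomes. The first 10% of the list held 9 left, 6 middle and 12 right peaks (7.83%, 5.61% and 10.5% of each part). On the autosomes these shares were 11.7%, 8.65% and 10.5%, with the middle lowest there too. The interval of each difference includes 0. The first sites by part were numbers 52, 108 and 31, described above.

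Regions on X lay farther apart than on the autosomes pooled, though some single autosomes came close to X or passed it. Once overlapping entries were joined, X had 332 distinct regions and the autosomes 1871. The median gap to the next region was 36.2 kb on X (quartiles 13.2 and 74 kb) and 26.7 kb on the autosomes (8.96 and 59.4 kb). On single autosomes the median ran from 21.4 to 33.5 kb and the upper quartile from 47.6 to 77.5 kb, so that X had the widest median but not the widest upper quartile. Within 5 kb, the main distance, 24.4% of X regions (interval 20.1 to 29.3%) and 28.8% of autosomal regions had a neighbour. The interval of the difference includes 0 (−9.15 to 0.93). Within 10 kb, an alternative distance, the shares were 36.4% on X (31.5 to 41.8%) and 46.1% on the autosomes (43.8 to 48.3%). That difference was −9.63 percentage points (−15.1 to −3.86). Single autosomes ran from 40 to 51.7% there, and the lowest lies within the interval of X. Within 10% of the mean gap of each chromosome, a distance added after seeing the data that is longer where peaks are sparse, 25% of X regions and 25.5% of autosomal regions had a neighbour. The part of density in the spacing was not tested. The SD of the gaps was 1.02 times their mean on X and 1.12 times on the autosomes.

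**Figure D4:**
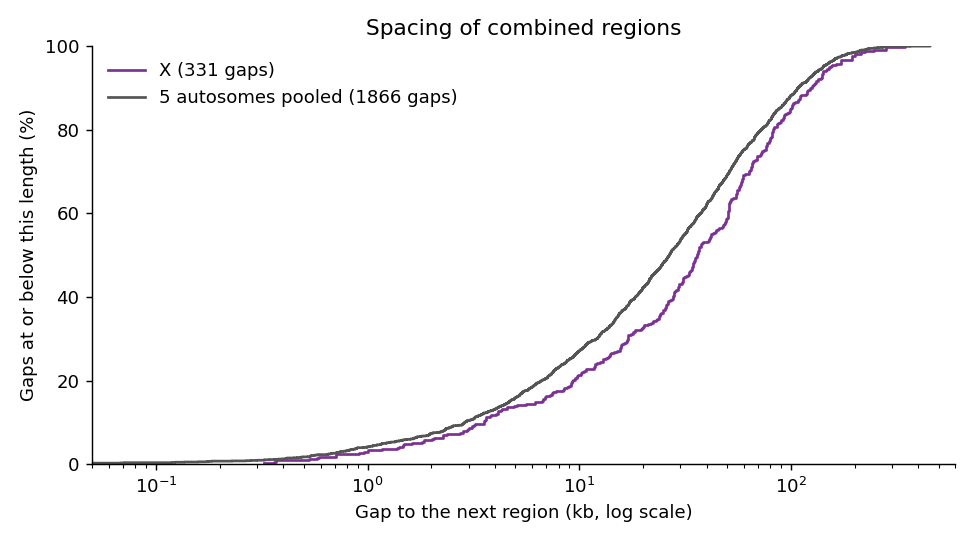
Cumulative percent of gaps between neighbouring combined regions by length in kb (log axis), for the 331 gaps of X and the 1866 of the 5 autosomes pooled. The X curve lies to the right, with a median gap of 36.2 kb against 26.7 kb.

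The longest gap on X was 345 kb, between a region ending at 4903753 and one starting at 5248831, and the longest on an autosome was 455 kb, on IV. Another long gap, 282 kb, followed at a short distance on X, after 5376648, so that the emptiest bin and the stretch before it held a pair of the 3 longest gaps. The remaining one, 283 kb, separated number 148 near the left end from the region to its right. Gaps over 100 kb made up 15.1% on X (11.6 to 19.4%) and 11.8% on the autosomes (difference 3.26 percentage points, −0.52 to 7.74), with 7.89 to 16% on single autosomes.

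Close sites on X formed 35 chains, in which each region lay within 5 kb of the next. These held 81 regions, and the autosomes had 242 chains with 538 regions. Of the X chains, 28 were pairs, 5 held 3 regions, 1 held 4 and 1 held 6. The chain of 6 was longer than any on the autosomes, where the longest held 5, but a single chain carries no spread. It ran over 16 kb, from 12996191 to 13012174, in the right part of X, with combined numbers 276, 1125, 360, 378, 1282 and 521 from left to right. All 6 had partners in both replicates. Their replicate 1 numbers were 210, 984, 262, 405, 1448 and 1082, and their replicate 2 numbers were 3825, 5260, 2114, 491, 720 and 160. The 4 members on the left thus had the lower number in replicate 1, and the 2 on the right had it in replicate 2.

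The chain of 4 lay at 10203514 to 10210412, in the middle of X, and held numbers 353, 157, 108 and 1376, all with partners in both replicates. X regions with a neighbour within 5 kb overlapped a replicate 2 peak in 93.8% of cases (76 of 81, interval 86.4 to 97.3%) and those without one in 88% (221 of 251, 83.5 to 91.5%). The autosomal shares were 90.0% and 85.3%. Close regions made up 29.8% of the regions on the left of X (22.2 to 38.8%), 18.3% in the middle (12 to 26.8%) and 24.6% on the right (17.6 to 33.2%), and these intervals overlap. On the autosomes pooled they made up 32.4%, 24.9% and 28.3%, so the middle was lowest there too. A total of 8 entries on X overlapped another entry, forming 4 regions of 680 to 788 bp. Each such pair shared 1 lowest-numbered partner in each replicate list, as at 6689128 to 6689825, where combined numbers 718 and 985 both met number 1484 of replicate 1 and number 254 of replicate 2.

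Widths on X followed the place in the list. Of the 336 peaks 235 were 480 bp wide, the most common width (69.9%, interval 64.8 to 74.6%), against 65.7% of autosomal peaks (63.5 to 67.8%), a difference of 4.24 percentage points (−1.28 to 9.37). No X peak was wider (0 of 336, which allows up to 0.893%), and 8 autosomal peaks were (0.421%, 0.213 to 0.828%). The interval of that difference includes 0 (−0.83 to 0.73), and single autosomes ran from 0 to 0.911%. The remaining 101 X peaks were narrower, with a median of 213 bp, down to 120 bp. A total of 3 peaks had that narrowest width, the first of them number 635 at X 15191505 to 15191624. Of the peaks at 480 bp the first by rule was number 431, at X 2231313 to 2231792, which had numbers 532 and 356 in the replicates. In the first 25% of the list 4.11% of X peaks were 480 bp wide (3 of 73, interval 1.41 to 11.4%), and in the last 25% all 92 were (96 to 100%). The autosomes went the same way, with 5.56% (3.85 to 7.96%) and 99.6% (98.5 to 99.9%). In the second 25% the shares were 62% on X and 65.2% on the autosomes, so X had the lower share in the earlier parts of the list, with intervals of both differences that include 0.

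Most X peaks were supported by the replicate lists. A peak counted as supported when it overlapped a replicate peak by at least 1 bp. All 336 X peaks overlapped a replicate 1 peak (98.9 to 100%), where 99.9% of the whole combined list did. In replicate 2, 301 X peaks had a partner (89.6%, interval 85.9 to 92.4%), against 1651 of 1901 on the autosomes (86.8%, 85.3 to 88.3%) and 87.3% of the whole list. The difference of 2.73 percentage points has an interval that includes 0 (−1.26 to 5.98). The same 301 peaks had partners in both replicates, 89.6% on X against 86.7% on the autosomes and 87.1% over the whole list. All lists go back to the same ChIP samples, and the overlap describes them without testing them.

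Support was less frequent late in the list, on X and on the autosomes. In the first 25% of the list all 73 X peaks had a replicate 2 partner (95 to 100%), against 99% on the autosomes (97.6 to 99.6%). In the next 25% they were 77 of 79 on X (97.5%, 91.2 to 99.3%) and 89.8% on the autosomes (86.8 to 92.2%), a difference of 7.68 percentage points (0.99 to 11.2). Single autosomes ran from 83.9 to 93.2% there, and the highest lies within the interval of X. In the following 25% the shares were 85.9% on X (77.3 to 91.6%) and 84.2% on the autosomes (80.6 to 87.2%). In the last 25% they were 78.3% on X (68.8 to 85.5%) and 73.9% on the autosomes (69.7 to 77.7%), with overlapping intervals in both.

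**Figure D5:**
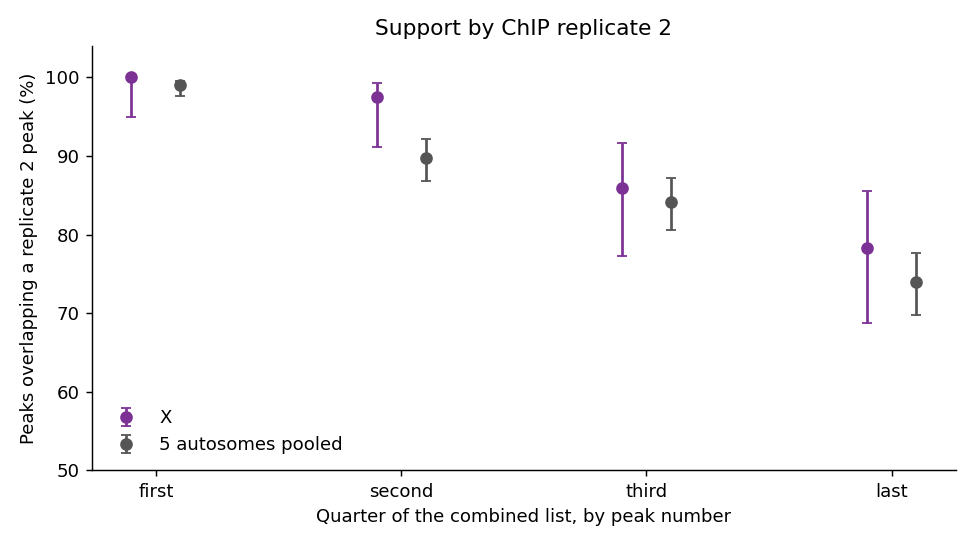
Percent of combined peaks that overlap a replicate 2 peak by at least 1 bp, by successive 25% of the combined list, for X and the 5 autosomes pooled, with 95% Wilson intervals as bars; the vertical axis starts at 50%. Both fall along the list, from 100% to 78.3% on X and from 99% to 73.9% on the autosomes.

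The 35 X peaks without a replicate 2 partner were all 480 bp wide. The earliest were numbers 687 and 920, in the second 25% of the list, and the median number was 1810. On the autosomes 250 lacked one, the earliest at number 254, and 229 of these were 480 bp wide. The X peaks were spread over the parts of the chromosome, 11 on the left, 13 in the middle and 11 on the right. Their nearest replicate 2 peak lay 27 to 23887 bp away, with a median of 3162 bp (2316 bp on the autosomes). Of the 35, 8 had one within 1 kb (22.9%), against 67 of the 250 on the autosomes (26.8%). The first 3 were number 687 at X 4810831 to 4811310, number 920 at X 2524490 to 2524969 and number 1246 at X 898886 to 899365. Their replicate 1 numbers were 347, 706 and 788, so all 3 were numbered below 1000 in that list.

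A partner overlapped its combined peak by rule, which bounds the distance between their midpoints. The midpoints of X peaks were a median of 7 bp from that of their lowest-numbered replicate 1 partner and 20.0 bp from that of replicate 2, against 8 and 19 bp on the autosomes. Some lay much farther off, such as the replicate 2 partner of number 1107, at 513 bp. Of the X peaks 175 (52.1%, interval 46.7 to 57.4%) met peaks numbered up to 2237 in both replicates, and on the autosomes 982 did (51.7%, 49.4 to 53.9%). The replicate 1 number of a partner was as high as 10880 of 20902, with mitochondrial peaks counted. The replicate 2 number was as high as 13789 of 13801, close to the end of that list.

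Seen from the replicate lists, X peaks entered the combined list less often than peaks of the autosomes pooled. Of replicate 1 peaks on X 9.80% overlapped a combined peak (359 of 3665, interval 8.87 to 10.8%), against 11.9% on the autosomes (difference −2.13 percentage points, −3.17 to −1.01). In replicate 2 it was 15% on X (356 of 2376, 13.6 to 16.5%) and 17.1% on the autosomes (difference −2.11, −3.66 to −0.47). On single autosomes these shares ran from 10.4 to 13.6% in replicate 1 and from 15.7 to 18.7% in replicate 2. In both, the lowest autosome lies within the interval of X. These shares largely restate the densities above and are not a separate result on X. The density ratio of X over autosomes was 0.82 in the combined list. In the whole lists of replicates 1 and 2 it was 0.99 and 0.97. Whether anything beyond density enters these shares was not tested. For sharing between the samples the intervals of both differences include 0. In all, 25.6% of replicate 1 peaks on X overlapped a replicate 2 peak, against 26.2% on the autosomes (difference −0.66, −2.20 to 0.92). In replicate 2 these shares were 40.3% on X and 41.9% on the autosomes (difference −1.58, −3.74 to 0.60). Among replicate 1 peaks that had a partner in replicate 2, 34.2% on X (31.2 to 37.2%) and 39.2% on the autosomes were in the combined list (difference −5.01, −8.30 to −1.60). On single autosomes this share ran from 36.7 to 40.6%, and the lowest lies within the interval of X. Among such replicate 2 peaks the shares were 37.1% on X and 40.3% on the autosomes, where the interval includes 0 (−6.54 to 0.18). Of the first 2237 nuclear peaks of replicate 2, 58% of those on X were in the combined list (215 of 371, 52.9 to 62.9%), against 64.2% on the autosomes (difference −6.25, −11.8 to −0.86). Here single autosomes ran from 61.7 to 67%, again with the lowest within the interval of X. For replicate 1 these shares were 87% on X and 88.9% on the autosomes (difference −1.88, −6.13 to 1.65).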

How the data were processed

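Per the file headers and source columns, the authors called peaks with SPP, applied IDR (a filter on agreement between replicates) and used build WS220. Not given in the sources used here: versions, thresholds, read filters, depth and how the inputs entered. The deposited score of a peak has no stated unit per the file headers, and it could not check the order given by the peak number among the first 2237 peaks, where scores tie. No per-sample values other than these lists were used. From the intervals, counts, shares, gaps and overlaps were computed with scipy 1.17.1, pandas 2.3.3 and numpy 2.4.6 under Python 3.11.15, and checked on simulated lists. Mitochondrial peaks were left out. A chromosome's span ended at its last peak in the 3 lists, and arms and centre were equal parts of it by peak midpoint. Shares have 95% Wilson intervals, densities exact Poisson intervals, ratios exact conditional and differences Newcombe intervals. Depth is unknown, so no value carries a depth-based limit; 0 of n is given as a limit of 3 in n. Sites were named by rule: the first 10 on X, the first of each part, the widest, narrowest, fullest, emptiest, longest gap and largest chain, and the first without a replicate partner. X as the subject, the settings and the rule were chosen with earlier results of these data known. The symbol zip-8 came from a RefSeq gene table of assembly WBcel235, whose coordinates were not used.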

Additional observations from a re-analysis of the deposited data

How the results depend on the processing

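Of 43 alternative values, 40 lay within the interval of the value reported (within 1.5 times it for bin variance). Among the results varied here, only the density ratio had a main interval that excluded no difference. None of its 6 alternatives turned its direction. The density ratio was 0.73 to 0.83 over merged peaks, the lower-numbered 50% of the list, the other span and replicate 1 alone. With each replicate left out it ranged from 0.81 to 0.93; the higher value, without replicate 1, has an interval that includes no difference. The variance of bin counts on X relative to the autosomes pooled (0.996) ranged from 0.644 without replicate 1 to 0.966 without replicate 2. The neighbour share moved from −4.36 to −9.63 percentage points when the distance was 10 kb. The cause was not tested. The difference in the centre share changed sign within its interval, from −1.60 with the middle 50% as centre to 1.43. Under other overlap rules and lists, support of X minus autosomes was 1.87 to 4.27 points for replicate 2. For both replicates it was 1.26 to 4.52 points. The intervals of both measures excluded 0 in the lower-numbered 50% of the combined list. There 98.7% of X peaks and 94.4% of peaks of the autosomes pooled overlapped replicate 2. The share of peaks in the first 10% differed by −3.98 points without replicate 2 (interval −6.63 to −0.52) and by −2.63 points without replicate 1 (−5.38 to 0.81). At other cuts the difference was −3.44 points in the first 5% (−4.99 to −1.09) and −3.84 in the first 25% (−8.38 to 1.25). With each replicate as a block, added after seeing the data, the ratios of X over autosomes within the ChIP samples had a geometric mean of 0.87; with 2 samples it was not tested. The inputs had no values, so no ChIP sample was paired with its input. The lists give no depth, which limits all results to an unknown extent.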
